A study of Mus musculus with 20 samples.

Results

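Endothelin-1, its receptors ETA and ETB and the enzyme that releases the active peptide are encoded by Edn1, Ednra, Ednrb and Ece1. These 4 genes were taken from the count tables by their symbols, ignoring case, so 4 of the 15780 genes listed are described. Kidney RNA of 20 NCr nude homozygous female mice was sequenced after poly(A) selection, 1 library per mouse and 5 mice per group. EIC mice were given 6 tail-vein injections of engineered immune complexes, made from a human galactose-deficient IgA1 myeloma protein (0.2 mg per injection) and a recombinant human IgG against it (0.1 mg), plus vehicle by gavage. EIC + S60 and EIC + S120 mice received the same injections and 60 or 120 mg/kg sparsentan by daily gavage for 11 days, while Control mice received PBS by tail vein on the same schedule, vehicle by gavage and no complexes. The mice were 7 weeks old at purchase and kidneys were taken on day 12, so the model is a short exposure to human complexes in mice that lack a thymus. Mice are named by their group and label number.

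Big endothelin-1 is cut out of a larger precursor by furin-type proteases, and endothelin-converting enzyme 1 then trims it to the active peptide. ETA, coupled mainly to Gq and G12/13 proteins, drives contraction of vascular smooth muscle and mesangial cells. ETB on endothelium releases nitric oxide and clears the peptide, and ETB in collecting duct reduces sodium and water uptake. Sparsentan blocks ETA and the angiotensin II type 1 receptor, so Ednra encodes one of its targets.

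Library totals ran from 12662345 to 38651781 counts. Control 651 and Control 652 were the deepest, at 37548347 and 38651781 counts, and EIC + S60 75 followed at 27948916. Markers of kidney were abundant: 5 proximal tubule genes summed to between 6542 and 11091 CPM (counts scaled to library size) in single mice and 5 podocyte genes to between 417 and 772 CPM. The one listed skeletal muscle marker was at most 0.0966 CPM and the 3 listed lymphocyte markers summed to at most 1.21 CPM. The muscle markers Acta1, Ckm and Tnnt3 and the T cell marker Cd3e were not analysed here, so these values are a partial check. The 4 adipocyte markers reached 67.9 CPM in EIC, 72.1 in EIC + S60, 66.2 in EIC + S120 and 289 in Control. That Control value was of mouse 653, which stood apart from the other Control mice (29.3 to 52.6 CPM) and also had the highest sum of collecting duct principal cell markers. Some receptor results against Control are therefore given without it too. A bulk kidney library cannot tell fewer cells of a type from less RNA per cell.

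None of the 4 genes passed edgeR's quasi-likelihood test in any of the 6 comparisons (adjusted p under 0.05 over 13990 genes tested). In EIC vs. Control, 0 of 4 passed and 2.97% of all genes did. Against EIC, 0 of 4 passed in EIC + S60 with 0% of all genes, and 0 of 4 in EIC + S120 with 0.0572%. Against Control, 0 of 4 passed in EIC + S60 with 1.29% of all genes, and 0 of 4 in EIC + S120 with 5.55%. EIC + S120 vs. EIC + S60 also gave 0 of 4, beside 0.0643% of all genes. At an unadjusted p under 0.05, Ednrb was the only member in EIC vs. Control (16.8% of all genes) and Ednra the only one in EIC + S120 vs. EIC (8.45%). EIC + S60 vs. Control had 3 members at that level, Edn1, Ednra and Ednrb (12.7% of all genes), and EIC + S120 vs. Control had Ednra and Ednrb (20% of all genes). The remaining comparisons, EIC + S60 vs. EIC and EIC + S120 vs. EIC + S60, had 0 members there, with 6.05% and 8.08% of all genes. Limma-voom also called 0 of the 4 in each comparison, and DESeq2 called 1 in EIC vs. Control (Ednrb, beside 5.04% of all genes in that tool) and 1 in EIC + S120 vs. Control (Ednra, beside 8.36%). A joint test of any difference among the 4 groups gave adjusted p = 0.202 for Ednra, 0.214 for Ednrb, 0.528 for Edn1 and 0.745 for Ece1 in edgeR, where 3.55% of all genes passed.

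**Figure D1:**
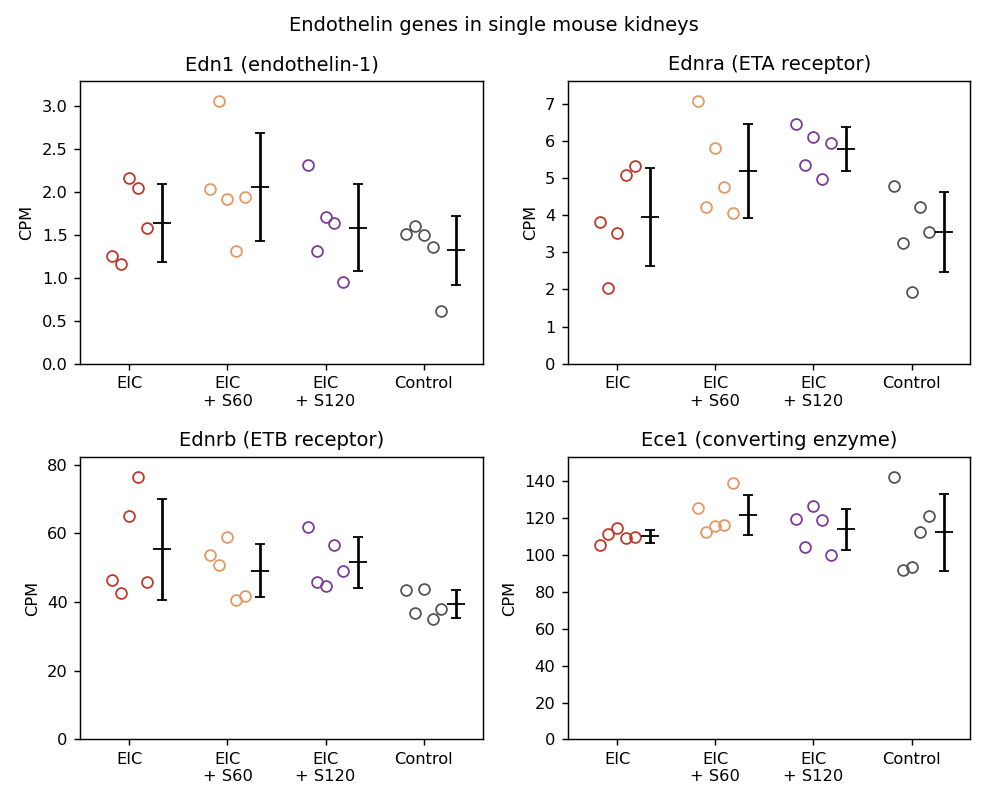
CPM of Edn1, Ednra, Ednrb and Ece1 on the vertical axes, with 1 open circle per mouse, a tick for each group mean and a bar for ± 1 SD (n = 5 mice per group). Ednra in EIC + S120, at 4.98 to 6.46 CPM, lay above all Control mice, at 1.93 to 4.77 CPM, while Ece1 overlapped in all groups. For 2.79% of all genes EIC + S120 lay wholly above Control.

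Ece1 was the most abundant member and Edn1 and Ednra the least. Per kilobase of exon, over all 20 mice, the median level was 21.4 CPM per kb for Ece1 (range 17.3 to 26.9), 10.8 for Ednrb (8.21 to 18.0), 0.870 for Ednra (0.352 to 1.29) and 0.744 for Edn1 (0.289 to 1.43). Ece1 and Ednrb were next to each other in this order, and the highest Ednrb value, 18.0 in EIC 68, passed the lowest Ece1 value of 17.3 in Control 652. Ednra and Edn1 overlapped over most of their ranges and are not ordered by these data. Lengths were the union of annotated exons, 5300 bases for Ece1, 4266 for Ednrb, 5476 for Ednra and 2139 for Edn1, so a level rests on which transcripts the kidney uses.

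Edn1, the ligand gene, lies on the plus strand at chr13:42301476-42307990 (GRCm38, GENCODE vM21, ENSMUSG00000021367.8) with 1 annotated transcript. Its promoter is printed with those of the receptor genes because immediate early factors named further on act on Edn1 transcription, and because the receptors had the lowest unadjusted p-values of the members in the joint test. Each sequence runs from 250 bases before the RefSeq start to 50 after it (GRCm38.p6), 5′ to 3′ on the strand of the gene, with matched motifs in capitals.
Edn1, chr13:42301226-42301525, plus strand: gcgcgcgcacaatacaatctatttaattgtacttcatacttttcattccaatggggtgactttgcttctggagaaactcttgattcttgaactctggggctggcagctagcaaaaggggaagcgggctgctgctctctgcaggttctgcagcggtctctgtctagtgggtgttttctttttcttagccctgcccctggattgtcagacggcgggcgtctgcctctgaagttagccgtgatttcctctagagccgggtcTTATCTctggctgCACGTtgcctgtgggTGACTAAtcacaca
Ednra, chr8:77724403-77724702, minus strand: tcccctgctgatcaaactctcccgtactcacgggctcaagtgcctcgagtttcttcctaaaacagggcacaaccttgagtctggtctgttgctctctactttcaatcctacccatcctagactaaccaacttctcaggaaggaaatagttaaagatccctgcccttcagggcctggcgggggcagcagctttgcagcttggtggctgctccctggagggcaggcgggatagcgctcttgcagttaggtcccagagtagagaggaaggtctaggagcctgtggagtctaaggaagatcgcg
Ednrb, chr14:103843652-103843951, minus strand: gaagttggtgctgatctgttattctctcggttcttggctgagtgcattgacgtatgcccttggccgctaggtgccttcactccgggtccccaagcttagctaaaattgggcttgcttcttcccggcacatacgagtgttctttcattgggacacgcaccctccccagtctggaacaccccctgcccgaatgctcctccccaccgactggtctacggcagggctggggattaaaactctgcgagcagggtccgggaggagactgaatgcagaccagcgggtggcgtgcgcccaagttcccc
The 7 motifs were searched on both strands. Edn1 held 3 of them: the GATA element TTATCT at bases 9 to 14, the hypoxia element ACGTG on the opposite strand (read as CACGT) at bases 22 to 26, and the activator protein-1 (AP-1) element TGACTAA at bases 37 to 43, counted from 1 at the annotated start. All 3 matches fell after that start. Sequence past base 50 was not searched, so a TATA or other match there would be missed. Of 32851 RefSeq promoter windows of the same length, 11.2% held TTATCT, 19.6% ACGTG and 2.35% TGACTAA. The other motifs were the AP-1 consensus TGANTCA (7.81% of windows), the E-box CACGTG, which contains ACGTG (7.15%), the TATA letters TATAAA (13.6%) and the GC box GGGCGG (35.7%). The Ednra and Ednrb windows held no match of the 7, which says only that these letters are not in these windows. The Ednrb window lies wholly inside the GENCODE span of the gene (chr14:103814625-103844402), downstream of its outermost annotated start. Sequence at that GENCODE start was not searched. Ece1 has 4 RefSeq windows, of which 3 held a GC box and 1 an E-box, and gene-level counts do not separate them. The windows at chr4:137861987-137862286 and chr4:137862030-137862329 overlap and hold the same GC boxes. A match is a description of letters, not a bound site.

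Edn1 mRNA was low in all groups, with 8 to 64 counts per library. Edn1 had 1.26, 1.16, 2.16, 2.05 and 1.58 CPM in EIC mice, 2.03, 3.06, 1.92, 1.31 and 1.95 in EIC + S60, 2.31, 1.31, 1.71, 1.64 and 0.953 in EIC + S120, and 1.51, 1.61, 1.49, 1.36 and 0.619 in Control. EIC + S60 72 was the highest mouse and Control 655 the lowest, and every pair of groups overlapped. The Control 655 value came from 8 counts, with an exact Poisson 95% interval of 0.267 to 1.22 CPM that covers counting error only.

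Relative to Control, the log2 fold change (LFC) of Edn1 was 0.28 in EIC (95% interval -0.30 to 0.85, edgeR adjusted p = 0.668), 0.60 in EIC + S60 (0.03 to 1.17, adjusted p = 0.359) and 0.23 in EIC + S120 (-0.35 to 0.81, adjusted p = 0.696). In EIC + S60, 4 of 5 mice lay above all Control mice, EIC + S60 74 being the exception. Relative to EIC, the LFC of Edn1 was 0.32 in EIC + S60 (-0.24 to 0.89, adjusted p = 0.887) and -0.05 in EIC + S120 (-0.63 to 0.53, adjusted p = 0.985). The doses differed by -0.37 (EIC + S120 vs. EIC + S60, -0.94 to 0.20, adjusted p = 0.807). Each of these intervals spans more than 1 log2 unit, and only that of EIC + S60 vs. Control leaves out 0.

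Edn3, the gene of endothelin-3, which prefers ETB, was higher than Edn1 per kilobase: 2.96 ± 0.925 against 0.767 ± 0.211 CPM per kb in EIC (SD, n = 5), with the same order in each other group. Its CPM values were 10.6, 7.09, 15.2, 16.6 and 11.4 in EIC mice, 10.2, 13.9, 9.07, 10.2 and 9.02 in EIC + S60, 16.6, 9.35, 11.7, 10.3 and 8.81 in EIC + S120, and 6.34, 9.79, 11.1, 11.3 and 9.52 in Control. EIC 67 and 68 were high, as they were for Edn1, and the groups overlapped. The LFC of Edn3 in EIC vs. Control was 0.35 (-0.10 to 0.80, edgeR adjusted p = 0.435), and its adjusted p lay between 0.435 and 0.951 over the 6 comparisons. Edn2 was not analysed here.

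Ednra, encoding ETA, lies on the minus strand at chr8:77663031-77724464 with 2 annotated transcripts (ENSMUSG00000031616.7). Its levels were 3.81, 2.03, 3.52, 5.09 and 5.31 CPM in EIC, 7.08, 4.21, 5.82, 4.76 and 4.07 in EIC + S60, 6.46, 5.36, 6.11, 4.98 and 5.96 in EIC + S120, and 4.77, 3.24, 1.93, 4.22 and 3.56 in Control. EIC + S120 was the group with the highest mean and the smallest spread, with all 5 mice above all 5 Control mice, a separation seen in the same direction for 2.79% of all genes in that comparison. EIC 66 and Control 653 were the lowest mice, at about 2 CPM.

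**Figure D2:**
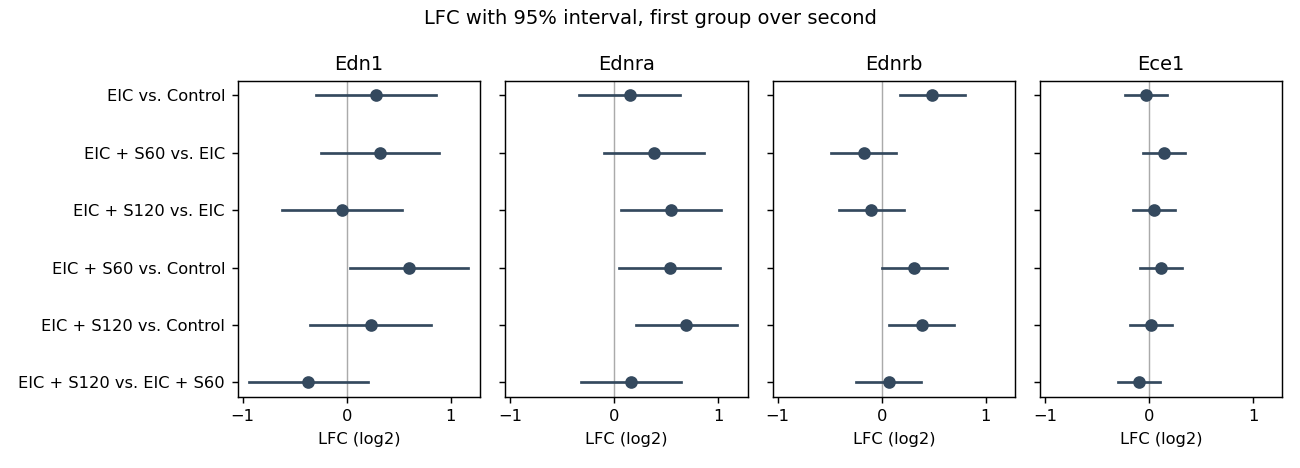
LFC of each member with its 95% interval from the edgeR model on the horizontal axes, 1 row per comparison, first group over second. The Ednra interval for EIC + S120 vs. Control (0.21 to 1.18) and the Ednrb interval for EIC vs. Control (0.17 to 0.80) lie above 0 although neither passed after adjustment, and Ece1 intervals all cross 0.

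Ednra averaged 5.77 ± 0.596 CPM in EIC + S120 and 3.54 ± 1.08 in Control (SD, n = 5 each), an LFC of 0.69 (SE 0.23, interval 0.21 to 1.18, edgeR adjusted p = 0.0857). The call turned on the method and on single mice: adjusted p was 0.0423 in DESeq2, 0.0494 without Control 651 (LFC 0.84) and 0.0437 without EIC 66 (LFC 0.70), a mouse outside this comparison that enters through the shared spread. Over all 28 alternatives 3 called it, with adjusted p between 0.0423 and 0.18. In EIC + S60 vs. Control the LFC was 0.53 (0.05 to 1.02, adjusted p = 0.34), and 2 of 5 EIC + S60 mice lay above all Control mice. EIC itself stood 0.15 from Control (-0.34 to 0.64, adjusted p = 0.803). Without Control 653, the lowest Control mouse for Ednra, the LFC was 0.54 in EIC + S120 vs. Control (adjusted p = 0.18) and 0.00 in EIC vs. Control (adjusted p = 0.998). In EIC + S60 vs. Control without that mouse, only 1 of the 2 receptor genes had an unadjusted edgeR p under 0.05, beside 1439 of 13942 genes. In EIC + S120 vs. Control without it, 2 of 2 did, beside 2506 of 13942 genes. Adjusted, 0 receptor genes passed in either.

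Against EIC, Ednra had an LFC of 0.54 in EIC + S120 (0.06 to 1.03, unadjusted p = 0.0289, edgeR adjusted p = 0.536) and 0.38 in EIC + S60 (-0.10 to 0.87, adjusted p = 0.834). In EIC + S120, 4 of 5 mice lay above all EIC mice, the exception being EIC + S120 80. The doses differed by 0.16 (EIC + S120 vs. EIC + S60, -0.31 to 0.64, adjusted p = 0.926), an interval that holds both a fall and a rise. With both doses averaged against EIC, a contrast added after the values were seen, the LFC was 0.46 (0.04 to 0.89, adjusted p = 0.649), and 0% of all genes passed, which was 0 of 13990. The comparisons with EIC share the EIC mice, and those with Control share the Control mice.

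Fibroblast markers had positive median LFCs in the sparsentan comparisons, as Ednra did, but not in EIC vs. Control. The 5 genes of that list (Pdgfra, Dcn, Col1a1, Col3a1 and Lum), none at 0 in any library, summed to 36.6 to 119 CPM in EIC, 52.6 to 154 in EIC + S60, 82.4 to 178 in EIC + S120 and 72.3 to 110 in Control. Their median LFC in EIC + S120 vs. EIC was 0.45 with 5 of 5 positive and 0 called, against a median of 0.00 over all genes, and 0.25 in EIC + S60 vs. EIC with 5 of 5 positive. It was 0.37 in EIC + S120 vs. Control, 0.31 in EIC + S60 vs. Control, and -0.20 with 2 of 5 positive in EIC vs. Control, where Ednra stood at 0.15. The highest sum and the highest Ednra fell in the same mouse in EIC + S60 (71), EIC + S120 (77) and Control (651). In EIC they were of mice 67 and 69. EIC 66 had the lowest sum and the lowest Ednra of its group. The lowest sum and the lowest Ednra were of different mice in EIC + S60 (74 and 75) and EIC + S120 (81 and 80). In Control they were of mice 655 and 653. The 8 mural and mesangial markers summed to 82.7 to 160 CPM in EIC, 94.9 to 190 in EIC + S60, 113 to 163 in EIC + S120 and 117 to 165 in Control, with 0 called in each comparison. Their median LFC was 0.07 in EIC + S120 vs. EIC (5 of 8 positive) and 0.15 in EIC + S60 vs. EIC (8 of 8). Against Control it was -0.20 in EIC + S120 (3 of 8), -0.002 in EIC + S60 (4 of 8) and -0.19 in EIC (1 of 8). Without Control 653 these 3 medians were 0.07, 0.10 and -0.04. The part of either cell population in the Ednra values was not tested.

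Ednrb, encoding ETB, lies on the minus strand at chr14:103814625-103844402 with 3 annotated transcripts (ENSMUSG00000022122.15). Its levels were 46.6, 42.7, 65.0, 76.6 and 46.0 CPM in EIC, 53.7, 50.7, 59.0, 40.7 and 41.9 in EIC + S60, 61.8, 45.8, 44.6, 56.7 and 49.0 in EIC + S120, and 43.6, 36.8, 43.9, 35.0 and 37.9 in Control. EIC 67 and EIC 68 stood high among EIC mice. Of the EIC-injected groups, EIC + S120 lay wholly above Control, while EIC 66, EIC + S60 74 and EIC + S60 75 fell within the Control range. For 2.79% of all genes EIC + S120 lay wholly above Control.

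Ednrb averaged 55.4 ± 14.8 CPM in EIC and 39.4 ± 4.08 in Control (SD, n = 5 each), an LFC of 0.49 (SE 0.15, interval 0.17 to 0.80, unadjusted p = 0.00413, edgeR adjusted p = 0.0876). DESeq2 gave the same gene an adjusted p of 0.0289, and without EIC 66, the lowest EIC mouse, edgeR gave 0.0356 (LFC 0.58). Over all 28 alternatives only these 2 called it, with adjusted p between 0.0289 and 0.227. Leaving out Control 653 gave an LFC of 0.53 for Ednrb (adjusted p = 0.0933). In EIC + S120 vs. Control the LFC was 0.39 (0.07 to 0.70, edgeR adjusted p = 0.146) with 5 of 5 mice above all Control mice, as for 2.79% of all genes. In EIC + S60 vs. Control the LFC was 0.32 (0.00 to 0.63, adjusted p = 0.387) with 3 of 5 above. Averaging the 3 EIC-injected groups against Control, also added after the values were seen, gave 0.40 (0.13 to 0.66, adjusted p = 0.0694), where 5.75% of all genes passed. In that contrast the LFC was 0.46 for Ednra (adjusted p = 0.176), 0.37 for Edn1 (0.38) and 0.04 for Ece1 (0.847).

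Ednrb passed in neither sparsentan group against EIC. The LFC was -0.17 in EIC + S60 vs. EIC (-0.48 to 0.14, edgeR adjusted p = 0.889) and -0.10 in EIC + S120 vs. EIC (-0.41 to 0.21, adjusted p = 0.898), and the doses differed by 0.07 (EIC + S120 vs. EIC + S60, -0.24 to 0.38, adjusted p = 0.956).

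EIC 67 and EIC 68 also had the highest endothelial sums of the 20 mice, 546 and 569 CPM over the 7 markers (Pecam1, Cdh5, Kdr, Tek, Emcn, Ehd3 and Tie1). Those sums were 343 to 569 CPM in EIC, 417 to 444 in EIC + S60, 385 to 458 in EIC + S120 and 361 to 465 in Control, with no marker at 0 in a library. In EIC vs. Control 7 of 7 endothelial LFCs were positive, with a median of 0.17 against -0.01 over all genes. edgeR called 0 of them, beside 2.97% of all genes, and 2 had an unadjusted p under 0.05, beside 16.8% of all genes. The 5 collecting duct principal cell markers summed to 684 to 874 CPM in EIC, 694 to 852 in EIC + S60, 531 to 889 in EIC + S120 and 646 to 1663 in Control.

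Markers of red blood cells and macrophages also stood higher in EIC. EIC 68 and EIC 67 had the highest sums of the 4 red blood cell genes (Hba-a1, Hbb-bs, Hbb-bt and Alas2) among the 20 mice, 1158 and 1055 CPM. Those sums ran from 518 to 1158 CPM in EIC, 451 to 847 in EIC + S60, 289 to 849.8 in EIC + S120 and 352 to 559 in Control, with no gene at 0. In EIC vs. Control their median LFC was 0.90 with 4 of 4 positive, and edgeR called 0 of them (Alas2 was called without Control 653). At an unadjusted p under 0.05 edgeR had 4, beside 16.8% of all genes. DESeq2 called 2, beside 5.04% of all genes in that tool. Of 5 macrophage markers, 3 rose in EIC vs. Control, where 1.61% of all genes rose, and the median LFC was 1.46. They were Adgre1, the surface protein F4/80 (LFC 1.73, edgeR adjusted p = 0.00586), C1qa, a chain of complement C1q (1.46, adjusted p = 0.00437), and Lyz2, lysozyme (1.89, adjusted p = 0.0165). The same 3 passed without Control 653, and none of them without the 2 deepest Control libraries (adjusted p 0.0561, 0.0563 and 0.0862). Cd68, at 1.01, and Csf1r, at 0.13, did not pass. The macrophage sums ran from 75.9 to 207 CPM in EIC, with EIC 67 the highest, 72.7 to 114 in EIC + S60, 76.2 to 103 in EIC + S120 and 69.8 to 91.7 in Control, with no marker at 0. The part of endothelium, principal cells, red blood cells and macrophages in the Ednrb values, and in the other EIC vs. Control results, was not tested.

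The balance of the receptors was taken as the log2 ratio of Ednra to Ednrb CPM in each mouse, in which gene length cancels between groups. It was -3.58, -4.32, -4.17, -3.89 and -3.09 in EIC mice, -2.91, -3.56, -3.32, -3.07 and -3.33 in EIC + S60, -3.24, -3.07, -2.85, -3.48 and -3.02 in EIC + S120, and -3.16, -3.46, -4.44, -3.02 and -3.38 in Control. EIC 69 was the one EIC mouse inside the range of the sparsentan groups, and Control 653 stood far below the other Control mice.

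**Figure D3:**
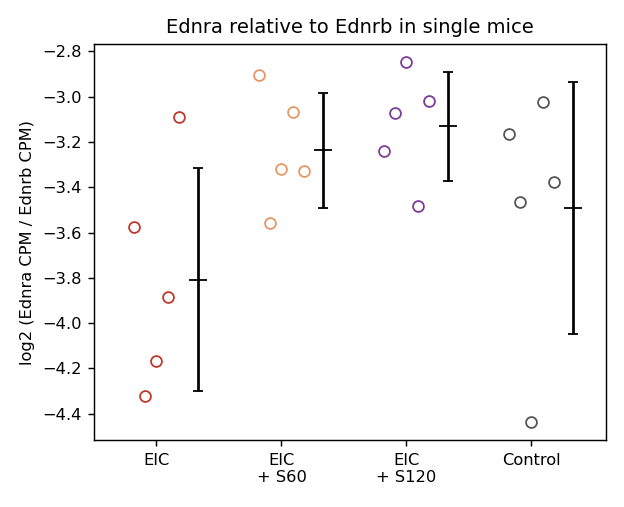
Log2 ratio of Ednra to Ednrb CPM on the vertical axis, 1 open circle per mouse, with group mean and ± 1 SD (n = 5 mice per group). The other 4 EIC mice, at -3.58 or lower, sit below all 10 sparsentan mice, at -3.56 or higher.

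The mean ratio was -3.81 ± 0.49 in EIC, -3.24 ± 0.25 in EIC + S60, -3.13 ± 0.24 in EIC + S120 and -3.49 ± 0.56 in Control (SD, n = 5 each). It was 0.57 higher in EIC + S60 than in EIC (two-sided exact permutation p = 0.0476) and 0.68 higher in EIC + S120 than in EIC (exact p = 0.0317). Adjusted over the 6 comparisons by Benjamini-Hochberg, both exact tests had p = 0.143 and did not pass. Without EIC 69, whose omission leaves EIC and each sparsentan group fully apart, the differences were 0.75 and 0.86, each with exact p = 0.00794, the smallest possible, and adjusted p = 0.0238. Omitting the 1 overlapping EIC mouse fixes that exact p in advance, so it adds no evidence. Without any other single EIC mouse, exact p was 0.0714 to 0.0952 in EIC + S60 vs. EIC and 0.0476 to 0.0635 in EIC + S120 vs. EIC (adjusted 0.214 to 0.286). EIC differed from Control by -0.31 (exact p = 0.373), EIC + S60 from Control by 0.26 (exact p = 0.437) and EIC + S120 from Control by 0.36 (exact p = 0.23). Without Control 653 these differences were -0.55 (exact p = 0.0794), 0.02 (exact p = 0.889) and 0.13 (exact p = 0.429). The doses differed by 0.10 (EIC + S120 vs. EIC + S60, exact p = 0.54). The smallest p that 5 mice against 5 allow is 0.00794.

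Ece1, the converting enzyme gene, lies on the plus strand at chr4:137862237-137965229 with 4 annotated transcripts (ENSMUSG00000057530.14). Its levels were 105, 111, 115, 110 and 110 CPM in EIC, 126, 112, 116, 116 and 139 in EIC + S60, 120, 105, 126, 119 and 100 in EIC + S120, and 143, 91.9, 93.8, 112 and 121.2 in Control. EIC mice were the most alike and Control mice the most spread, with Control 651 the highest of all 20 and Control 652 the lowest. The LFC was -0.03 in EIC vs. Control (-0.23 to 0.17, edgeR adjusted p = 0.92), 0.12 in EIC + S60 vs. Control (-0.09 to 0.32, adjusted p = 0.673) and 0.02 in EIC + S120 vs. Control (-0.18 to 0.22, adjusted p = 0.938). Against EIC it was 0.15 in EIC + S60 (-0.06 to 0.35, adjusted p = 0.847), where 4 of 5 mice lay above all EIC mice, and 0.05 in EIC + S120 (-0.15 to 0.25, adjusted p = 0.931). EIC + S120 vs. EIC + S60 gave -0.10 (-0.30 to 0.11, adjusted p = 0.885). These intervals hold no change larger than 0.35 log2 units in either direction.

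Endothelin processing and breakdown gave no calls in any group. Of the 8 genes of that list, Furin and Pcsk7, which cut the precursor, Ece2, a second converting enzyme, Mme, the degrading enzyme neprilysin, and Ctsa, a lysosomal carboxypeptidase, were tested beside Ece1. Kel, an endothelin-3-processing enzyme of red cells in humans, had 0 to 2 counts per library and was not tested, and Cma1 was not analysed here. edgeR, DESeq2 and limma-voom each called 0 of the 6 in all 6 comparisons, and at an unadjusted p under 0.05 edgeR had 0 and the other tools at most 1. In EIC vs. Control the LFC was -0.13 for Furin (edgeR adjusted p = 0.422), -0.01 for Pcsk7 (0.977), 0.09 for Ece2 (0.759), -0.07 for Mme (0.849) and 0.21 for Ctsa (0.311). Per kilobase of exon, Ctsa averaged 62.6 ± 6.74 CPM per kb in EIC and 54.3 ± 6.99 in Control (SD, n = 5 each), the highest of the list in each group, and Mme 39.7 ± 10.5 in EIC and 41.8 ± 3.57 in Control. Ece2 shares 57.5% of its exons with Gm49333 on the same strand, so its counts are uncertain. On the opposite strand, Edn1 shares 35 bases with Gm47118 and Ednra 91 bases with 4933431K23Rik, under 2% of either gene, and Ctsa shares 495 bases with Pltp. The strand setting of the counting is not given in the sources used here.

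Of G protein effectors and receptor regulators, not particular to ETA, 22 genes were tested. They encode G proteins, phospholipase C, IP3 receptors, protein kinase C, RGS proteins, arrestins and the receptor kinases Grk2 and Grk5. In EIC vs. Control, 2 of 22 fell and 0 rose (1.37% of all genes fell), with a median LFC of -0.07 against -0.01 over all genes. Gna12, the G12 alpha subunit, had 145, 168, 148, 141 and 156 CPM in EIC and 212, 190, 157, 175 and 196 in Control, an LFC of -0.29 (-0.45 to -0.14, edgeR adjusted p = 0.0331). EIC 66 alone reached into the Control range. Prkce, protein kinase C epsilon, had 21.4, 23.4, 23.1, 29.6 and 21.1 CPM in EIC and 35.2, 27.0, 34.0, 26.1 and 34.8 in Control, an LFC of -0.40 (-0.62 to -0.19, adjusted p = 0.0337). EIC 68 alone reached into the Control range for Prkce. Each call held in 19 of 28 alternatives. Gna12 lost it without any one of Control 651, 652 or 655 or EIC 65, 67, 68 or 69 (adjusted p 0.0548 to 0.107), and Prkce without any one of Control 651, 653 or 655 or EIC 65, 66, 67 or 69 (0.0578 to 0.105). In the other comparisons edgeR called 0 of 22. At an unadjusted p under 0.05 in edgeR, EIC vs. Control had 2 higher and 6 lower (16.8% of all genes in either direction). EIC + S60 vs. EIC had 5 higher (6.05%) and EIC + S120 vs. EIC 2 higher (8.45%). EIC + S60 vs. Control had 2 higher and 2 lower (12.7%), EIC + S120 vs. Control 3 lower (20%) and EIC + S120 vs. EIC + S60 0 (8.08%). In EIC + S120 vs. Control DESeq2 called 2 lower and limma-voom 1 lower, beside 8.36% and 5.45% of all genes called by those tools.

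The 9 genes of ETB signalling and its tubular targets (Nos1, Nos3, Ptgs1, Ptgs2, Ptges, Scnn1a, Scnn1b, Scnn1g and Aqp2) make nitric oxide and prostaglandin E2 or carry sodium and water. edgeR called 0 of 9 in each comparison. At an unadjusted p under 0.05, all lower, were 2 in EIC vs. Control (16.8% of all genes in either direction), 1 in EIC + S60 vs. EIC (6.05%), 2 in EIC + S120 vs. EIC (8.45%), 2 in EIC + S60 vs. Control (12.7%), 4 in EIC + S120 vs. Control (20%) and 0 in EIC + S120 vs. EIC + S60. DESeq2 called 1 lower in EIC + S60 vs. Control, beside 2.67% of all genes in that tool, and limma-voom 0 throughout. Their median LFC was -0.26 in EIC + S120 vs. Control, against -0.01 over all genes, with 1 of 9 positive. In that comparison Aqp2, the vasopressin-regulated water channel, had an LFC of -0.95 (adjusted p = 0.141) and Ptgs2, cyclooxygenase-2, -0.97 (adjusted p = 0.386). Control 653 had 1246 CPM of Aqp2 and 3.73 CPM of Ptgs2, against medians of 411 and 1.16 in Control. Without that mouse the LFC in EIC + S120 vs. Control was -0.38 for Aqp2 (adjusted p = 0.478) and -0.49 for Ptgs2 (adjusted p = 0.724), the median of the 9 was -0.26 with 2 of 9 positive, and 2 were lower at an unadjusted p under 0.05. In EIC vs. Control without it 0 were lower and 1 higher at that level, and in EIC + S60 vs. Control 1 was lower.

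Principal cell markers, which share Aqp2 with that list, had a negative median in the same comparison. In EIC + S120 vs. Control the 4 tested had a median LFC of -0.32 with 1 of 4 positive, and 1 fell in edgeR, where 2.67% of all genes fell, and in DESeq2 and limma-voom. This was Aqp3, a water and glycerol channel of the collecting duct, with 110 to 140.1 CPM in EIC + S120 and 144 to 187 in Control. It had 153 to 192 CPM in EIC and 154 to 183 in EIC + S60. Its LFC in EIC + S120 vs. Control was -0.45 (-0.63 to -0.27, edgeR adjusted p = 0.00291), and the call held in 28 of 28 alternatives. Against EIC and against EIC + S60, edgeR did not call Aqp3 in EIC + S120, while 1 and 2 of 28 alternatives did. Without Control 653 the median was -0.17, with Aqp3 still called (LFC -0.42, adjusted p = 0.00815). The part of principal cells in the values of the 9 genes was not tested.

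Among 12 genes known to act on Edn1 transcription, 2 fell in EIC vs. Control, the AP-1 subunits Fos and Jun, and 0 rose. In that comparison 1.37% of all genes fell and 1.61% rose. Fos had 4.01, 1.63, 0.512, 0.994 and 2.21 CPM in EIC, 1.11, 0.635, 3.20, 1.97 and 3.40 in EIC + S60, 5.39, 22.2, 7.21, 8.38 and 11.1 in EIC + S120, and 18.2, 15.2, 10.1, 11.4 and 27.2 in Control. All EIC and EIC + S60 mice lay below every EIC + S120 and every Control mouse, and EIC + S120 overlapped Control. Such separation was seen in the same direction for 2.03% of all genes in EIC vs. Control, 1.74% in EIC + S60 vs. Control, 0.65% for EIC + S120 over EIC and 0.722% for EIC + S120 over EIC + S60. The LFC of Fos was -3.10 in EIC vs. Control (-4.19 to -2.01, edgeR adjusted p = 0.00341) and -2.95 in EIC + S60 vs. Control (-4.02 to -1.87, adjusted p = 0.00518, where 0.479% of all genes fell), calls that held in 28 of 28 alternatives. In EIC + S120 vs. Control it was -0.59 (adjusted p = 0.499).

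Jun ran from 30.4 to 48.5 CPM in EIC, 30.4 to 49.1 in EIC + S60, 48.5 to 115 in EIC + S120 and 48.7 to 119 in Control. Its LFC was -1.0 in EIC vs. Control (-1.54 to -0.46, adjusted p = 0.042), -0.97 in EIC + S60 vs. Control (adjusted p = 0.0731) and 0.05 in EIC + S120 vs. Control (adjusted p = 0.944). In EIC + S60 vs. Control, 1 of 28 alternatives called Jun. The EIC vs. Control call held in 13 of 28 alternatives. Among single mice it was lost without any EIC mouse, Control 651, 652 or 655, EIC + S60 71 or 74, or EIC + S120 80 or 81 (adjusted p 0.0507 to 0.103). In EIC + S120 vs. EIC the LFC was 2.51 for Fos (adjusted p = 0.134) and 1.05 for Jun (adjusted p = 0.229), neither passing in edgeR, while DESeq2 called both (0.00196 and 0.00496, beside 0.475% of all genes). DESeq2 also called 3 of the 12 lower in EIC + S60 vs. Control, beside 2.67% of all genes in that tool. It called 2 of them higher in EIC + S120 vs. EIC + S60, where it called 81 genes in all. The remaining 10 regulators did not pass in EIC vs. Control, among them Gata2, a binder of GATA elements (LFC -0.05), the hypoxia factor Hif1a (-0.17), Per1, a clock repressor (0.86, adjusted p = 0.226), and Klf2, an endothelial repressor of Edn1 (0.34). Edn1 itself stood at 0.28 in that comparison.

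**Figure D4:**
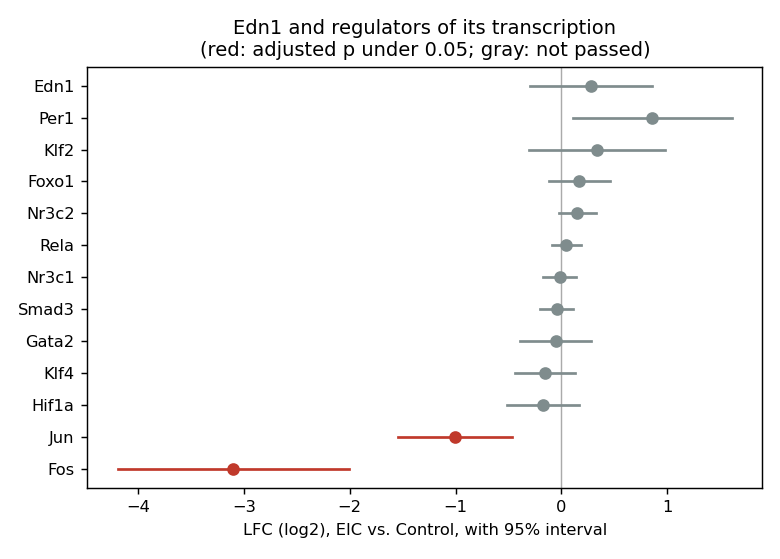
LFC in EIC vs. Control (horizontal axis, with 95% interval) of Edn1 and of 12 genes that act on its transcription, red where adjusted p was under 0.05. Fos at -3.10 and Jun at -1.0 lie below 0, and the Edn1 interval of -0.30 to 0.85 crosses 0.

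Genes of the most similar pattern were ranked by Pearson's r of log2 CPM over the 20 mice among 12810 genes, as a description with no test, since mice of a group and libraries of like depth are not independent points. For Ednra the highest were C7, a late complement component (r = 0.89), Mgp, matrix Gla protein (0.85), and Cygb, cytoglobin (0.83). For Ednrb they were FAM188B (0.89), Vim, the filament protein vimentin (0.86), and Rundc3a (0.84). For Ece1 they were Nhsl2 (0.84), Myo6, an unconventional myosin (0.81), and Furin (0.81), and for Edn1 Eef2k, a kinase of elongation factor 2 (0.78), Il27ra, an interleukin-27 receptor subunit (0.77), and Tmem47 (0.76). After subtracting group means these values lay between 0.69 for Il27ra and 0.90 for Nhsl2.

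**Figure D5:**
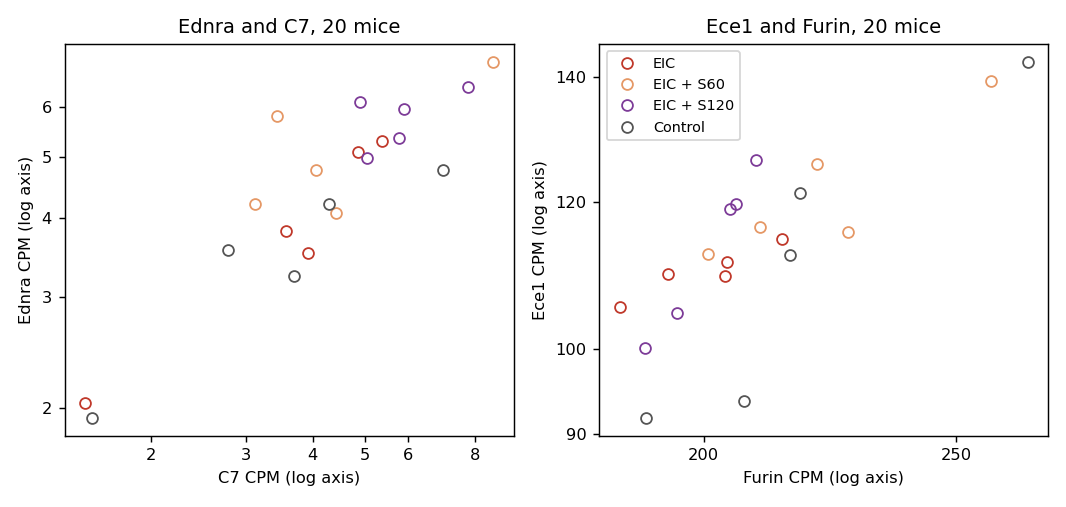
Ednra against C7 and Ece1 against Furin, CPM on log axes, 1 open circle per mouse coloured by group. EIC 66 and Control 653 are lowest for both Ednra and C7, and Control 651 and EIC + S60 75 are highest for both Ece1 and Furin.

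C7 had 3.57, 1.51, 3.92, 4.85 and 5.36 CPM in EIC, 8.65, 3.12, 3.43, 4.05 and 4.42 in EIC + S60, 7.76, 5.78, 4.89, 5.04 and 5.90 in EIC + S120, and 6.98, 3.69, 1.56, 4.28 and 2.79 in Control. EIC 66 and Control 653 were low for C7 as for Ednra, and EIC + S60 71 was the highest for both. Furin reached 258 CPM in EIC + S60 75 and 266 in Control 651, the mice with 139 and 143 CPM of Ece1. Both are among the 3 deepest libraries, while Control 652, the deepest, had 91.9 CPM of Ece1 and 190 of Furin. The part of depth was not tested. Among the members themselves the highest r was 0.56, for Edn1 and Ednrb (0.54 after subtracting group means), followed by 0.39 for Ednra and Ece1 and 0.37 for Ednra and Ednrb.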

How the data were processed

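Kidney RNA of 20 mice (5 per group, groups from the sample labels, doses and days from the study's methods) was sequenced as 1 library per mouse. The authors' processing notes name Trimmomatic 0.36, STAR 2.5.2b, featureCounts and Subread 1.5.2, with GRCm38 as the build. Each deposited table holds raw, unscaled counts of the same 15780 genes in the mice of 1 group. Every listed gene had a count in EIC 65, while the other libraries had 234 to 654 of them at 0, and other genes were not analysed here. Neither the annotation nor the strand setting of the counting is given in the sources used here.

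Symbols were respelled as in GENCODE vM21 (15387 matched). A gene was tested where 5 or more libraries had 10 or more counts (13990 of 15780 genes). TMM scaling and the robust quasi-likelihood model of edgeR 4.0.16 (R 4.3.3), with a mean for each group, gave two-sided tests, adjusted by Benjamini-Hochberg across the whole table and called under 0.05. CPM are TMM-scaled, and the receptor ratio used a prior count of 2. Library totals of 12662345 to 38651781 counts set the counting precision. The study ran all mice in parallel with no account of cages, and p-values measure the spread between these mice.

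The members and the gene lists were chosen with earlier results of these data known. Named were the members, every ligand, receptor and processing gene, any other pathway gene called in a comparison, and the 3 genes most like each member with a mean of at least 1 CPM. Other genes named were chosen after their values were seen. The marker lists covered endothelium, mural and mesangial cells, fibroblasts, principal cells, proximal and distal tubule, the thick ascending limb, podocytes, macrophages, red blood cells, adipocytes, adrenal gland, skeletal muscle and lymphocytes. Alternatives were RLE and upper-quartile scaling, no filter or a mean of at least 1 CPM, DESeq2 1.42.0, limma 3.58.1 with voom, fits of 2 groups alone, omission of the 2 deepest Control libraries and of each mouse. The edgeR fit was tested on simulated data with known changes.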

Additional observations from a re-analysis of the deposited data

Results flagged for a closer look

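Control 655, with 0.619 CPM of Edn1, lay far below the other 4 Control mice, at 1.36 to 1.61 CPM. Its gap to the nearest was 0.751 of the group's range, above Dixon's 95% critical value of 0.71 for 5 samples. The value came from 8 counts. Of 20 groups of values examined this was the only one past the value, and chance alone gives about 1 in 20.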

How the results depend on the processing

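No paired analysis was possible because the mouse numbers differ between all groups. The printed intervals hold both counting error and the spread between mice, and they limit what could be seen. DESeq2 called 1 member in EIC vs. Control (Ednrb, LFC 0.50) and 1 in EIC + S120 vs. Control (Ednra, LFC 0.70), where edgeR called 0. With single mice left out, the number of members called was 0 to 1 in both. The ratio of Ednra to Ednrb then differed by 0.44 to 0.75 in EIC + S60 vs. EIC and by 0.55 to 0.86 in EIC + S120 vs. EIC. The highest values, both past the threshold, were without EIC 69, the only EIC mouse inside the range of the sparsentan groups. LFCs near 0 changed sign: Ece1 in EIC vs. Control was 0.0274 without the 2 deepest Control libraries and -0.0957 to 0.0843 with single mice left out. Likewise, the ranges were -0.0463 to 0.128 for Ece1 in EIC + S120 vs. Control, -0.223 to 0.0866 for Edn1 and -0.19 to 0.0379 for Ednrb in EIC + S120 vs. EIC, and -0.0025 to 0.14 for Ednrb in EIC + S120 vs. EIC + S60. None of these passed, and the cause was not tested. The alternatives for Fos, Jun, Gna12, Prkce, Adgre1, C1qa, Lyz2 and Aqp3, and the lists without Control 653, were added after the values were seen. Jun, Gna12 and Prkce lost their EIC vs. Control calls in fits of 2 groups alone (adjusted p = 0.103, 0.12 and 0.123) and without the 2 deepest Control libraries (0.173, 0.244 and 0.0981). Over all genes, DESeq2 against edgeR called 704 against 416 genes in EIC vs. Control, 5 against 0 in EIC + S60 vs. EIC, 65 against 8 in EIC + S120 vs. EIC, 359 against 180 in EIC + S60 vs. Control, 1122 against 777 in EIC + S120 vs. Control, 81 against 9 in EIC + S120 vs. EIC + S60 and 1028 against 497 in the joint test. EIC vs. Control gave 143 genes from its 2 groups alone and 124 without the 2 deepest Control libraries. Leaving out single mice moved the counts over all genes as well: EIC vs. Control gave 233 (without EIC 68) to 465 (without EIC 66), EIC + S120 vs. EIC 1 to 14, EIC + S60 vs. Control 103 (without EIC + S60 73) to 224 (without Control 651), EIC + S120 vs. Control 489 (without EIC + S120 81) to 1172 (without EIC + S120 77), EIC + S120 vs. EIC + S60 2 (without EIC + S120 78) to 54 (without EIC + S120 77), and the joint test 303 (without Control 654) to 726 (without EIC + S120 77).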
